A study of Mus musculus with 38 samples.

Results

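The nuclear genes of oxidative phosphorylation encode most subunits of the mitochondrial respiratory chain and of ATP synthase, and 95 of the 31053 genes in the count tables were taken as members. A gene was a member if its symbol began with Nduf, Uqcr, Atp5, Cox4, Cox5, Cox6, Cox7 or Cox8, or was Sdha, Sdhb, Sdhc, Sdhd, Cyc1 or Cycs. The rule uses symbols alone, and the set was taken up with earlier results of these data known. Each member was placed in a respiratory complex: 36 genes encode subunits of complex I, 8 encode complex I assembly factors, 4 belong to complex II, 9 to complex III, 19 to complex IV and 16 to complex V. Cycs (cytochrome c), Ndufa4l2 (a paralogue of Ndufa4) and Atp5s (a protein named for a coupling factor of ATP synthase) were kept apart.

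Complex I takes electrons from NADH and complex II takes them from succinate. Both pass them through ubiquinone to complex III, then through cytochrome c to complex IV, where oxygen is reduced. The proton gradient built along the way drives complex V, the ATP synthase. A few core subunits are encoded in mitochondrial DNA, and all the others are made from nuclear genes and imported, so that both genomes must supply parts of the same complexes. T cells raise both glycolysis and mitochondrial respiration when they are activated, and Th17 cells, helper T cells that make IL-17, are among the T cells in which the balance of these pathways has been studied.

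The RNA came from mouse Th17 cells in 38 libraries, each made from 2000 sorted cells by a modified SMART-Seq2 protocol with 12 amplification cycles. In 22 libraries, naive T cells carrying the 2D2 T cell receptor, which recognises a myelin antigen, had been differentiated in culture to the state labelled Th17Inf and transferred into wild-type recipient mice to induce experimental autoimmune encephalomyelitis (EAE), a model of multiple sclerosis. At peak disease the 2D2+ cells were sorted from the central nervous system (CNS) or from draining lymph nodes (dLN). The donor mice were CHD1 WT (3 CNS and 3 dLN libraries), CHD1 cKO (4 and 4), GR WT (4 CNS) or GR cKO (4 CNS). CHD1 is a chromatin remodeller, GR is the glucocorticoid receptor encoded by Nr3c1, and cKO stands for a conditional knockout whose Cre driver the labels do not name. The other 16 libraries are naive T cells of WT or IL-23R KO mice, which lack the receptor for interleukin 23, differentiated to Th17Inf cells in culture and kept with or without dexamethasone (Dex), a synthetic glucocorticoid, for 2 days, with 4 libraries in each of the 4 groups. The labels do not say which libraries come from separate animals or cultures, so every p-value below measures only the spread between libraries.

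Libraries held 3148634 to 9159671 counts, of which 13.1% to 59.7% lay in repeat and ribosomal RNA features. Nr3c1 was at 5.18 to 6.10 CPM in the GR cKO libraries and at 11.5 to 17.2 in GR WT, without overlap but not called (log2 fold change -1.30, edgeR adjusted p = 0.113). Il23r was at 1.5 to 2.38 CPM in IL-23R KO Dex against 5.87 to 15.8 in WT Dex (-2.41, edgeR adjusted p = 1.87e-05). It was at 2.14 to 5.27 in KO control against 5.77 to 8.01 in WT control, which was not called (-0.74, adjusted p = 0.398). Counts over the whole Chd1 gene did not set the CHD1 genotypes apart: the libraries labelled cKO were at 3.45 to 6.37 CPM against 5.04 to 6.08 in WT in the CNS (log2 fold change -0.05, edgeR adjusted p = 0.96). In the dLN they were at 2.57 to 5.41 against 4.68 to 5.09 (-0.33, adjusted p = 0.562), and where the deletion lies in the gene is not given in the sources used here. The CHD1 directions below therefore refer to libraries labelled cKO.

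The first measure was the share of each library that the members took together, which lay between 1.98% and 3.34% of the counts outside repeat features. In culture their share was 3.09% to 3.29% in WT control and 3.03% to 3.34% in IL-23R KO control. It was 2.7% to 2.88% in WT Dex and 2.29% to 2.33% in KO Dex, so neither Dex group overlapped its control. In the transferred cells the CHD1 cKO CNS libraries (2.58% to 2.95%) lay above CHD1 WT CNS (2.38% to 2.40%). The cKO dLN libraries (1.98% to 2.26%) overlapped WT dLN (2.21% to 2.64%). GR cKO (2.25% to 2.63%) and GR WT (2.31% to 2.68%) covered nearly the same range. Fewer cells of a type and less RNA per cell cannot be told apart in such bulk libraries.

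**Figure D1:**
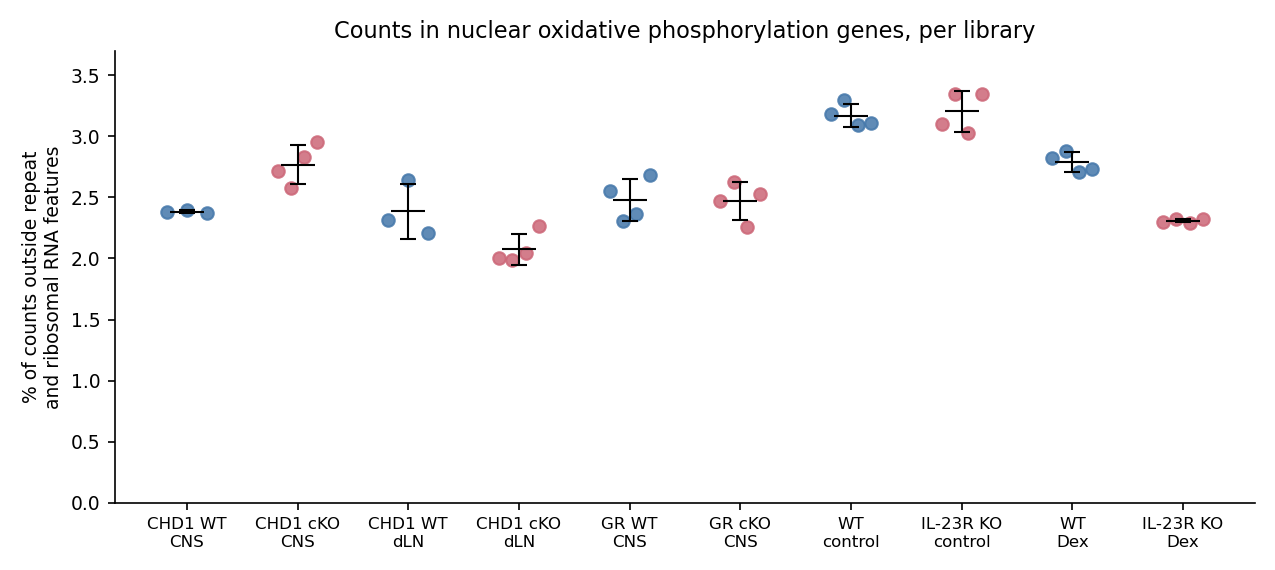
Percent of counts outside repeat and ribosomal RNA features that lie in nuclear oxidative phosphorylation genes, one point per library, with the mean and SD of each of the 10 groups. The 4 IL-23R KO Dex libraries sit between 2.29% and 2.33%, below all other libraries made in culture, and the 4 CHD1 cKO CNS libraries sit above the 3 CHD1 WT CNS libraries.

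Levels differed widely between members. On the scale of CPM (counts scaled to library size, with TMM factors that balance the libraries over all genes), divided by exon length in kilobases, the median WT control member stood at 185 for complex V, 358 for complex IV, 316 for complex III, 101 for complex I and 63.9 for complex II. The complex I assembly factors, which help to build the complex without being part of it, stood lower, at 15, as did Cycs at 6.87. Exon length here counts every annotated exon of a gene, 8086 bases for Ndufs1 and 419 for Ndufa1. It can exceed the length of the main transcript, so ranks and shares between genes depend on the annotation. Ndufs1, the large iron-sulphur core subunit, had the lowest level among complex I subunits, at 5.82, and Ndufa1, a small accessory subunit, the highest, at 836. Cox8a led complex IV at 1388 and Cox4i2 was lowest at 3.09. The lowest and highest members were Uqcrc1 at 61.5 and Uqcr10 at 639.9 in complex III, Atp5g1 at 52.7 and Atp5k at 281 in complex V, and Sdhc at 16.5 and Sdhd at 92.8 in complex II. CPM values given from here on are not divided by length and compare libraries, not genes, unless a sentence says that they are per length. Summed marker levels are an exception: they are CPM of total counts, repeat features included, without TMM factors. Only Cox8b was at 0 in every library, and 5 members (Cox8b, Cox8c, Cox7b2, Ndufa4l2 and a second row of Atp5o) stayed under 10 counts in all of them. The filter on low counts was passed by 89 members in culture, where Cox6a2 was the other one left out, by 89 in both CNS tables and by 86 in the dLN table. Many of these genes have processed pseudogenes, and how reads were shared with such copies is not given in the sources used here.

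Dexamethasone lowered part of the set in WT cells. After 2 days, 21 of the 89 tested members were lower and 0 were higher than in WT control, where 8.1% of all 10813 genes tested were called, 4.21% lower and 3.89% higher. The median member had a log2 fold change of -0.18, beside 0.01 for all genes, and 76 of 89 members had a negative value. By complex, 4 of 15 complex V members fell, 5 of 15 in complex IV, 4 of 9 in complex III, 6 of 36 in complex I, 1 of 8 assembly factors and 0 of 4 in complex II. Further, 38 of 89 members had all WT Dex libraries below all WT control libraries, against 8.21% of all genes.

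Cycs, the mobile electron carrier between complexes III and IV, fell most among the called members. It stood at 24.8, 21.5, 25.3 and 22 CPM in WT control and at 10.1, 17.6, 17.2 and 14 in WT Dex (log2 fold change -0.67 ± 0.19 SE, edgeR adjusted p = 0.0406). No WT Dex library reached the lowest control. Ndufa4, once assigned to complex I and now counted as a complex IV subunit, was at 506, 537, 435 and 502 CPM in WT control and at 343, 432, 340.2 and 330.5 in WT Dex (log2 fold change -0.45 ± 0.09 SE, edgeR adjusted p = 0.00572). Atp5b, the catalytic beta subunit of ATP synthase, was at 1107, 1249.7, 1065 and 1095 CPM in WT control against 874, 947, 794 and 864 in WT Dex (log2 fold change -0.38 ± 0.08 SE, edgeR adjusted p = 0.00802). The WT Dex libraries lay wholly below the controls for both genes, although WT Dex library 2 came close to the lowest control for Ndufa4. Cox5a, a nuclear subunit of complex IV, fell by 0.33 on the log2 scale (adjusted p = 0.00502), Cox7a2 by 0.35 (adjusted p = 0.0102), and Ndufb6, an accessory subunit of the membrane arm of complex I, by 0.40 (adjusted p = 0.00476). Ndufab1, the mitochondrial acyl carrier protein that is also a complex I subunit, fell by 0.44 (adjusted p = 0.00719). Among the complex III members, the core protein Uqcrc1 (-0.22, adjusted p = 0.0279) and the Rieske iron-sulphur protein Uqcrfs1 (-0.23, adjusted p = 0.0211) fell, and Uqcrc2 (-0.13, adjusted p = 0.319) and Cyc1 (-0.24, adjusted p = 0.15) did not pass the test. The complex I assembly factor Ndufaf1 fell by 0.40 (adjusted p = 0.0289).

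The number of members called in WT cells depended on single libraries. It was 11 without WT control library 1, 9 without library 2 and 11 without library 4, and 12, 10 and 13 without WT Dex library 1, 3 or 4, where 4.81% to 6.19% of all genes were called. Cycs missed the threshold when any of 7 of the 8 libraries, all but WT Dex library 2, was left out (adjusted p 0.0533 to 0.122), and Uqcrc1 did so for the same number (0.0531 to 0.0946). Ndufaf1 did so for 5 (0.0506 to 0.0971), Uqcrfs1 for 4 (0.0524 to 0.0738) and Atp5g1, described below, for 4 (0.0568 to 0.0679), while the calls of Atp5b, Ndufa4, Cox5a, Cox7a2, Ndufb6 and Ndufab1 held in each of these fits.

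In IL-23R KO cells the same treatment moved most of the set. Against KO control, 60 of 89 members were lower and 11 were higher with Dex, where 54.7% of all genes tested were called, 27.4% lower and 27.3% higher. The median member was at -0.45 beside 0.01 for all genes, and 12 members fell by more than 1 on the log2 scale. The members below their control in every library numbered 57 (23.8% of all genes), and 9 were above it in every library (24.2%). The mitochondrially encoded subunits took 0.522% to 0.716% of the non-repeat counts in KO Dex, against 1.96% to 2.86% in the other 3 groups. Repeat features took 30.5% to 37.5% in KO Dex against 13.5% to 25.4%. The summed level of 7 T cell markers was 821 to 1049 CPM of total counts, which include these features, against 1443 to 1712. In the TMM-scaled fit 5 of the 7 were called lower. Cd3d (0.14, edgeR adjusted p = 0.269) and Cd3e (-0.07, adjusted p = 0.456) did not pass, and none of the 7 was at 0 in all libraries of a group. The part of these differences in the fall of the members was not tested. Macrophage and microglia markers summed to 215 to 378 CPM over all 16 libraries, with Lyz2, C1qb, C1qc and Itgam at 0 in each.

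**Figure D2:**
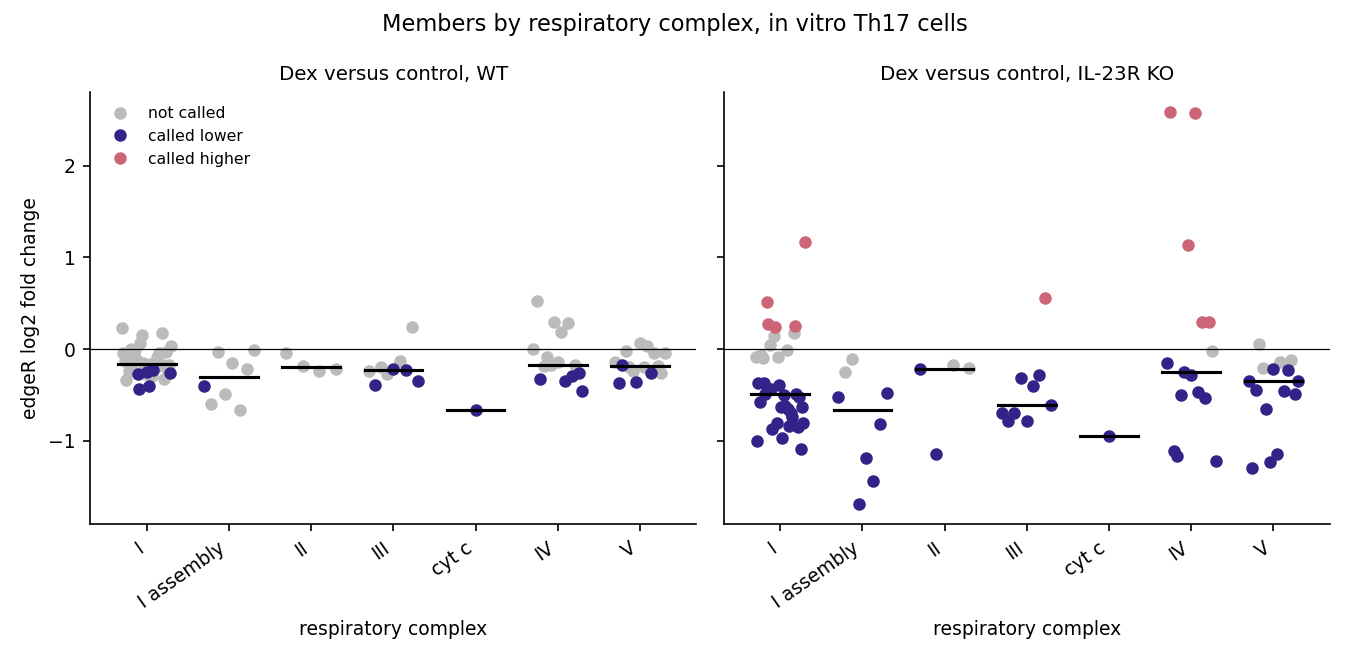
edgeR log2 fold changes (Dex versus control) of the tested members in WT cells (left) and IL-23R KO cells (right), one point per gene, by respiratory complex. Horizontal bars are the medians of the genes drawn, blue marks genes called lower, red genes called higher and grey genes not called, and Atp5s is not drawn. The WT points stay within 0.7 of 0, while the KO points reach from -1.69 (Ndufaf4) to 2.59 (Cox4i2).

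The ATP synthase moved in one direction in KO cells, with 11 of 15 tested members lower and 0 higher (median log2 fold change -0.35), beside 27.4% and 27.3% of all genes. Atp5b was at 1094, 1327, 1011 and 1276 CPM in KO control and at 466, 499.8, 473 and 479.8 in KO Dex (log2 fold change -1.30 ± 0.08 SE, edgeR adjusted p = 2.38e-09). The KO Dex libraries held less than 0.5 of the lowest control, and they lay below every WT library too. Atp5a1, which encodes the alpha subunit that alternates with beta in the catalytic ring, was at 408 to 470.2 CPM in KO control and at 324 to 381 in KO Dex (log2 fold change -0.35 ± 0.06 SE, edgeR adjusted p = 0.000184). Alpha and beta stand in equal number in the enzyme, and both messages fell without overlap, beta by the larger step.

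The 3 genes of the c subunit, Atp5g1 (chr11:96068852-96075670 in GRCm38), Atp5g2 (chr15:102662864-102672352) and Atp5g3 (chr2:73908447-73911326), encode the same mature protein of the rotor ring behind different import sequences. Atp5g1 was at 228, 316, 242 and 254 CPM in KO control and at 101, 122, 98.2 and 120.5 in KO Dex (log2 fold change -1.24 ± 0.10 SE, edgeR adjusted p = 2.07e-08). Atp5g3 was at 362, 464, 355 and 435 CPM and at 170.2, 196, 172 and 193 (log2 fold change -1.15 ± 0.08 SE, edgeR adjusted p = 8.80e-09). Atp5g2 was at 432, 396, 430.2 and 413 CPM and at 382, 335, 369 and 349 (log2 fold change -0.22 ± 0.06 SE, edgeR adjusted p = 0.00643). All 3 groups of Dex libraries lay below their controls, with a far smaller step for Atp5g2 than for the other 2. In WT cells Atp5g1 fell, being at 256 to 267 CPM in control and 192 to 215 with Dex (-0.36, adjusted p = 0.0226), while Atp5g3 (-0.19, adjusted p = 0.162) and Atp5g2 (0.07, adjusted p = 0.552) did not pass. Per length, Atp5g2 made up 51.3% ± 4.28 (SD, n = 4) of c subunit counts in KO control, 66.8% ± 3.07 in KO Dex, 51.9% ± 1.02 in WT control and 57% ± 1.92 in WT Dex. Its share was thus above that of the matched control in every Dex library of both genotypes. The size of the share depends on the exon lengths used, 4912 bases for Atp5g1, 1675 for Atp5g2 and 2181 for Atp5g3.

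The RefSeq start windows of these 3 genes are shown because their products are alike and their messages moved by different amounts. Each window runs from 250 bases before to 50 bases after an annotated start on GRCm38.p6: chr11:96075582-96075881, minus strand for Atp5g1, chr15:102670998-102671297, minus strand for Atp5g2 and chr2:73911277-73911576, minus strand for Atp5g3. Capitals mark matches to GCGCATGC, the core of the NRF1 motif, to its shorter form TGCGCA, to the ETS motif CCGGAAG, bound by GABPA among others, or to the YY1 motif AAGATGGC, each searched on both strands.
Atp5g1: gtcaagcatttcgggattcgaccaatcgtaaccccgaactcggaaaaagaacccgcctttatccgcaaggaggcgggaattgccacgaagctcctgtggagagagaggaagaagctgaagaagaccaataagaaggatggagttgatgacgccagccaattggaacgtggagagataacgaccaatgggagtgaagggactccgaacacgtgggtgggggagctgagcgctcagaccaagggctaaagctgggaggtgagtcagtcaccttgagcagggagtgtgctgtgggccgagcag
Atp5g2: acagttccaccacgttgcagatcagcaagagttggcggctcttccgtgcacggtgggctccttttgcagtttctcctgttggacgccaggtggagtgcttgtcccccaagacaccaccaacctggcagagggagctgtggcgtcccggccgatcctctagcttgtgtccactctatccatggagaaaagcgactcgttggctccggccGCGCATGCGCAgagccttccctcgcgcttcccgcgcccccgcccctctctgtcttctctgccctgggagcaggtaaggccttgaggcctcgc
Atp5g3: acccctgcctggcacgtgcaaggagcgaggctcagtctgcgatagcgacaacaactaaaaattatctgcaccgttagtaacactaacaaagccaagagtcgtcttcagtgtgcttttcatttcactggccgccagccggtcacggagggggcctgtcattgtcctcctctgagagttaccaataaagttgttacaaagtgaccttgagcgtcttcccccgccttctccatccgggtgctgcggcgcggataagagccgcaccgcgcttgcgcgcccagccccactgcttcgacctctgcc
The capitals in Atp5g2 hold 2 overlapping matches to GCGCATGC and 1 to TGCGCA, which starts 37 bases before the annotated start. No match was found in the Atp5g1 and Atp5g3 windows. Those windows hold the upstream end of their gene span. The Atp5g2 window ends at 102671297, inside its gene span, which runs on to 102672352. The windows of the genes thus come from unlike starts.

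Such windows were found for 77 of the 95 members (82 windows, since some genes have more than 1 start). GCGCATGC was in 15.9% of the member windows and in 2.71% of all 32851 windows of this length, and TGCGCA, whose matches can overlap it, in 24.4% and 7.76%. CCGGAAG was in 22% and 8.86%, and AAGATGGC in 13.4% and 2.75%. In the 53 windows of the 50 members that Dex lowered in KO cells the shares were 18.9%, 30.2%, 20.8% and 18.9%, in the order given above. In the 11 windows of the 10 members that were higher, 1 window (9.09%) held each motif, and in the 16 windows of 15 members not called the shares were 12.5%, 18.8%, 37.5% and 0%. A match describes letters only and is not a measured binding site, and a window without one says nothing about the factor.

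Complex II, which also runs the succinate step of the citric acid cycle, changed unevenly. Sdhb (chr4:140961203-140979193), its iron-sulphur subunit, was at 204, 235, 207 and 214 CPM in KO control and at 95.9, 99.1, 91.5 and 103 in KO Dex (log2 fold change -1.14 ± 0.07 SE, edgeR adjusted p = 9.41e-10). The KO Dex libraries lay far below the lowest control. Sdha, the flavoprotein that binds succinate, was at 137, 156, 136 and 142 CPM and at 119, 127, 122 and 124 (log2 fold change -0.22 ± 0.06 SE, edgeR adjusted p = 0.00488), a call with a much smaller step. The membrane anchors Sdhc (-0.18, adjusted p = 0.271) and Sdhd (-0.21, adjusted p = 0.055) overlapped their controls and did not pass. None of the 4 genes passed in WT cells, where Sdhb was at 177 to 185 CPM with Dex and at 190.04 to 223 without (-0.18, adjusted p = 0.102). The start window of Sdhb (chr4:140961021-140961320, plus strand) is shown as that of a gene with a large fall, and that of Cox7a1 (chr7:30183921-30184220, plus strand), described below, as that of a gene with a large rise, with capitals as before.
Sdhb: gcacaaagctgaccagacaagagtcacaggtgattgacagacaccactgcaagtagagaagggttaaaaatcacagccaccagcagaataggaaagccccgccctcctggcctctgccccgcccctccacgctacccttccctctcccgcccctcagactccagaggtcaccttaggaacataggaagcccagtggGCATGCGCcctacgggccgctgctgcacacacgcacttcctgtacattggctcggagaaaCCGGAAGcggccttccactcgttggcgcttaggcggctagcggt
Cox7a1: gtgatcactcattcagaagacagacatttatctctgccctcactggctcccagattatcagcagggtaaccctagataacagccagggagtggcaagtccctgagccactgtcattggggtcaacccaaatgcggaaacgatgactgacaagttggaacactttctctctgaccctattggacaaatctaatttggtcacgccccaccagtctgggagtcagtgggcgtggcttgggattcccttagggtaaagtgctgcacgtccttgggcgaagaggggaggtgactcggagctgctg
Sdhb holds 1 match to GCGCATGC on the reverse strand and 1 to CCGGAAG, and no match was found in the Cox7a1 window.

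Complex IV had 9 of 15 tested members lower and 5 higher in KO cells, where 27.4% of all genes were lower and 27.3% higher. Cox5b was at 538, 599, 582 and 653 CPM in KO control and at 290.02, 245, 274 and 249.7 in KO Dex (log2 fold change -1.16 ± 0.07 SE, edgeR adjusted p = 1.59e-09). Cox5a (chr9:57521274-57532426) was at 443, 501, 444 and 471 CPM and at 228, 200.3, 215 and 214 (log2 fold change -1.12 ± 0.07 SE, edgeR adjusted p = 1.33e-09), and Ndufa4 at 383, 434, 429 and 499 and at 199, 187, 184 and 178 (log2 fold change -1.22 ± 0.10 SE, edgeR adjusted p = 2.31e-08). In all 3 the highest KO Dex library was far below the lowest control. Cox6a1, the form of its subunit found in most tissues, fell by 0.51 on the log2 scale (adjusted p = 3.23e-06) and Cox7a2 by 0.47 (adjusted p = 9.97e-05), while Cox4i1 moved little (-0.16, adjusted p = 0.0184, and 0.053 without KO Dex library 6).

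The 11 members that rose in KO cells include 3 forms of complex IV subunits best known from other tissues. Cox7a1 (chr7:30184144-30186078), the heart and skeletal muscle form of subunit VIIa, was at 35.8, 13.7, 31.5 and 12.5 CPM in KO control and at 134, 137, 143 and 131 in KO Dex (log2 fold change 2.57 ± 0.24 SE, edgeR adjusted p = 1.18e-07). The 4 KO control libraries fell into a higher and a lower pair, and all of them were well under every KO Dex library. Per length, Cox7a1 made up 6.48% ± 3.3 (SD, n = 4) of the counts of COX7A genes in KO control and 35.8% ± 1.73 in KO Dex, beside 8.83% ± 0.618 and 12.3% ± 1.04 in WT control and WT Dex. Cox4i2 (chr2:152754173-152765037), the form of subunit IV known from lung and from low oxygen, was at 2.33, 0.39, 3.2 and 1.13 CPM and at 9.59, 11.6, 9.88 and 9.8 (log2 fold change 2.59 ± 0.37 SE, edgeR adjusted p = 1.43e-05). It stayed a minor form, at 2.85% ± 0.364 of the counts of both COX4 genes per length in KO Dex. Cox6b2, known from testis, went from 20.2, 9.75, 14.4 and 16.8 CPM to 50.03, 23.5, 33.9 and 26.7 (log2 fold change 1.14 ± 0.26 SE, edgeR adjusted p = 0.00151), again without overlap. Cox7c (0.30, adjusted p = 0.00364) and Cox7a2l, which helps to join complexes III and IV (0.29, adjusted p = 0.0127), were called higher by small steps. With total counts in place of TMM scaling Cox7a2l was at -0.17, and without KO control library 6 its adjusted p was 0.0502.

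**Figure D3:**
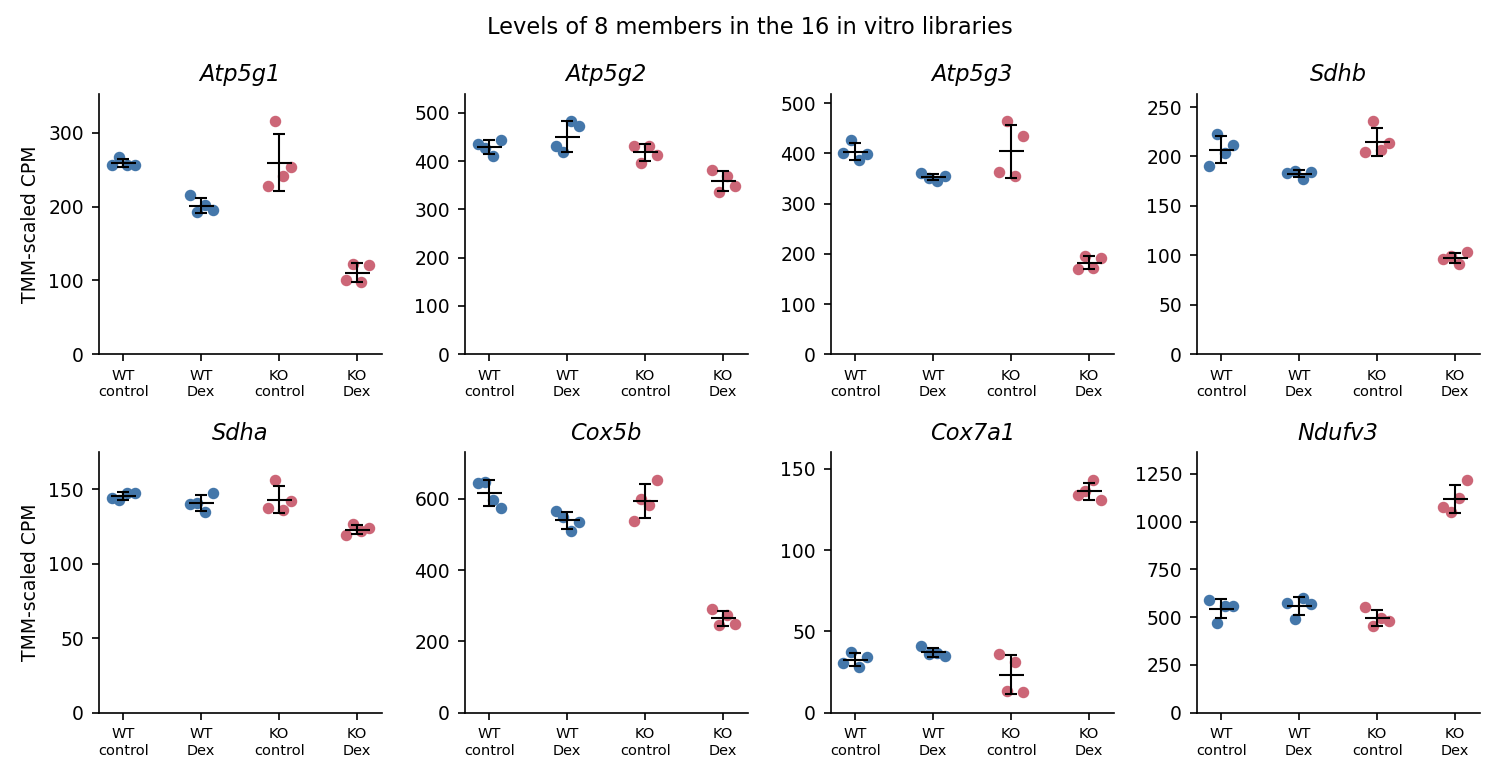
TMM-scaled CPM of 8 members in the 16 libraries made in culture, one point per library with the mean and SD of each group of 4, each panel on its own axis from 0. Atp5g1, Atp5g3, Sdhb and Cox5b are lowest in IL-23R KO Dex, Atp5g2 and Sdha shift little, and Cox7a1 and Ndufv3 stand high in IL-23R KO Dex alone among the 4 groups.

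In complex III, 8 of 9 members fell in KO cells and 1 rose, beside 27.4% and 27.3% of all genes. Uqcrc1 was at 246, 285, 268 and 269.6 CPM in KO control and at 149, 154, 153 and 164 in KO Dex (log2 fold change -0.78 ± 0.06 SE, edgeR adjusted p = 1.56e-08), with no overlap. Cyc1, the cytochrome c1 of the complex, fell by 0.70 on the log2 scale (adjusted p = 1.56e-05), Uqcrc2 by 0.41 (adjusted p = 0.000154) and Uqcrfs1 by 0.28 (adjusted p = 0.000835). The exception was Uqcrh, the hinge protein at the docking site of cytochrome c, at 621, 506, 561 and 508 CPM in KO control and 852, 693, 822 and 860.1 in KO Dex (log2 fold change 0.56 ± 0.08 SE, edgeR adjusted p = 1.67e-05). On total counts without TMM scaling that call was lost (adjusted p = 0.192). Cycs fell in KO cells as in WT, from 27.2, 31.4, 20.6 and 25.1 CPM to 9.59, 12.9, 19.5 and 11.9 (log2 fold change -0.95 ± 0.20 SE, edgeR adjusted p = 0.000699).

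Complex I had 23 of 36 members lower and 5 higher in KO cells, beside 27.4% and 27.3% of all genes, with a median of -0.49. The core subunits that carry electrons from NADH fell: Ndufv1, which binds NADH, went from 82.8, 90.1, 83.1 and 95.2 CPM to 49.4, 66.1, 52.8 and 59.1 (log2 fold change -0.63 ± 0.09 SE, edgeR adjusted p = 1.44e-05). Ndufs1 went from 47.2, 49.5, 49.7 and 46.7 to 29.4, 28.6, 31.9 and 28.6 (log2 fold change -0.70 ± 0.09 SE, edgeR adjusted p = 4.81e-06), and Ndufs8, an iron-sulphur core subunit nearer the membrane, from 108, 117, 80.1 and 99.4 to 43.1, 37.8, 47.1 and 61.7 (log2 fold change -1.09 ± 0.13 SE, edgeR adjusted p = 2.55e-06). None of these groups overlapped. Ndufv3 (chr17:31520115-31531331), an accessory subunit beside Ndufv1, went the other way, from 555, 454, 497 and 479 CPM in KO control to 1074, 1051, 1124 and 1218 in KO Dex (log2 fold change 1.17 ± 0.08 SE, edgeR adjusted p = 8.48e-09). Its 4 KO Dex libraries were the highest of the 16 made in culture, of which the next was at 599.6. The other complex I members that rose did so by small steps: Ndufa6 was at 267, 177, 321 and 247 CPM in KO control and 372, 339.7, 377 and 352 in KO Dex (log2 fold change 0.51 ± 0.13 SE, edgeR adjusted p = 0.00272), and Ndufa7, Ndufs4 and Ndufb11 were at 0.27, 0.26 and 0.24 on the log2 scale. Of the 8 assembly factors 6 fell and 0 rose, among them Ndufaf6 (-1.44, adjusted p = 0.00026) and Ndufaf5 (-1.19, adjusted p = 6.82e-06), both at low levels of 7.9 to 15.4 and 6.47 to 8.19 CPM in KO Dex.

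Scaling bears on the sizes of these changes. Without TMM scaling the median of all genes in the KO comparison was -0.45, and the members split into 4 higher and 78 lower at a median of -0.92. Of all genes 12.6% were then called higher and 48.5% lower. The median member lay 0.46 below the median gene under both scalings. This is no separate check, because a scaling factor shifts all genes of a library alike. In WT cells the same step gave 32 lower and 0 higher members, beside 6.33% of all genes lower and 2.24% higher, with all genes at a median of -0.10.

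The difference between the responses was tested as an interaction of genotype and Dex, which 8 members passed upward and 35 downward, where 32.2% of all genes were called, 15% upward and 17.2% downward. A negative term means a lower log2 fold change with Dex in KO than in WT cells, and the median member's term was -0.26. Cox7a1 had the largest positive term (log2 fold change 2.39 ± 0.33 SE, edgeR adjusted p = 4.46e-05): it was at 34.9 to 40.9 CPM in WT Dex, 28.2 to 37.5 in WT control and 131 to 143 in KO Dex. Ndufv3 (log2 fold change 1.14 ± 0.12 SE, edgeR adjusted p = 3.19e-06) and Cox4i2 (log2 fold change 2.07 ± 0.53 SE, edgeR adjusted p = 0.00647) also had positive terms, followed by Ndufa6 (0.57, adjusted p = 0.0232) and Cox7c (0.47, adjusted p = 0.00321), which both lost the call on total counts without TMM scaling (adjusted p = 0.243 and 0.426). Among the negative terms were those of Ndufaf5 (-1.04, adjusted p = 0.0013), Cox5b (-0.97, adjusted p = 3.19e-06), Sdhb (-0.96, adjusted p = 1.74e-06), Atp5g3 (-0.95, adjusted p = 1.33e-05) and Atp5b (-0.92, adjusted p = 2.08e-05). Ndufa10, a complex I accessory subunit, was at 137 to 146 CPM in WT Dex and 139.8 to 151 in WT control, and at 68.8 to 98.1 in KO Dex and 153 to 178 in KO control (log2 fold change -0.96 ± 0.12 SE, edgeR adjusted p = 2.50e-05). No difference in response was called for 46 members: the terms of Cycs (-0.28 ± 0.28 SE, adjusted p = 0.468), Cox7a2 (-0.12 ± 0.11 SE, adjusted p = 0.456) and Uqcrfs1 (-0.05 ± 0.08 SE, adjusted p = 0.718) did not pass. Of the 21 members lower with Dex in WT cells 19 were also lower in KO cells, which is 90.5% of the WT and 31.7% of the KO list. The other 2, Cox8a and Ndufb9, were at -0.02 and -0.01 there. How many of all genes lowered in WT cells also fell in KO cells is not given here.

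**Figure D4:**
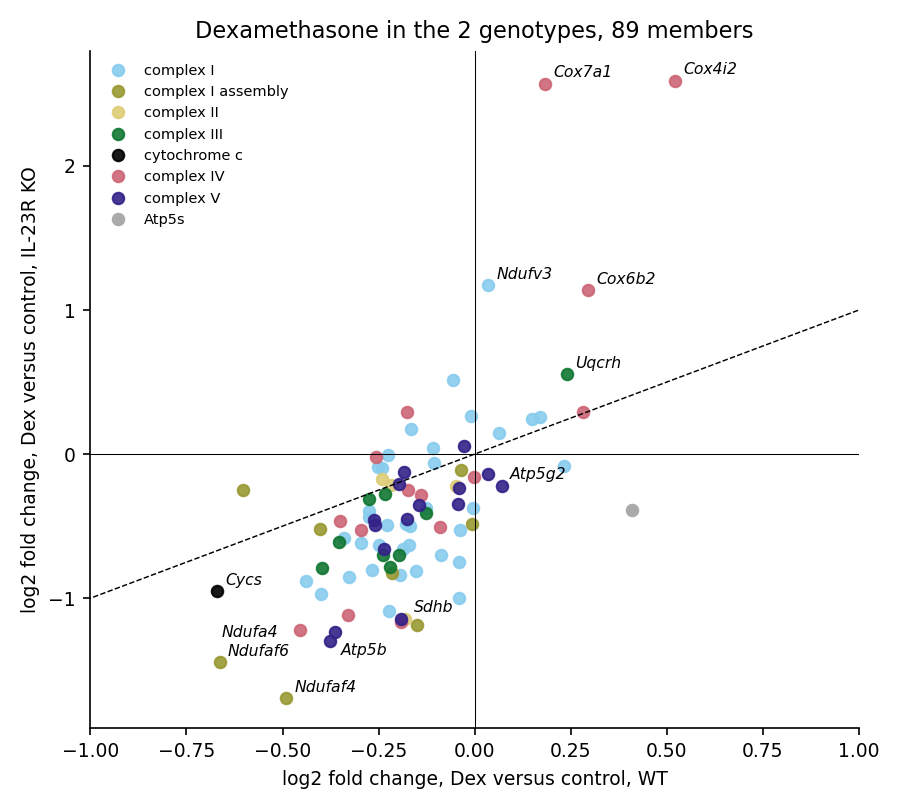
log2 fold changes with Dex in WT cells (x axis) and in IL-23R KO cells (y axis) for the 89 tested members, coloured by complex, with a dashed line where both are equal. Most points lie below the line in the lower left, where 70 members were negative in both genotypes (the share of all genes is not given here). Cox7a1, Cox4i2, Ndufv3 and Cox6b2 stand above 1 in KO cells.

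With Dex given to both genotypes, more members were lower than higher in KO cells. In KO Dex against WT Dex, 47 of 89 members were lower and 9 higher (45.9% of all genes were called, 23.7% lower and 22.2% higher), with Cox5b (-1.03, adjusted p = 1.36e-08), Atp5g3 (-0.95, adjusted p = 1.30e-07) and Sdhb (-0.91, adjusted p = 2.54e-08) among those that were lower. Ndufaf6 (-1.09, adjusted p = 0.00389) and Ndufa4 (-0.95, adjusted p = 7.05e-07) were lower too, and Cox7a1 (1.87, adjusted p = 4.16e-06), Ndufv3 (1.00, adjusted p = 8.84e-08) and Cox4i2 (1.54, adjusted p = 0.00108) were higher. The calls of Cox7c (0.40) and of Ndufs3, a core subunit of complex I (0.38), as higher were lost on total counts (adjusted p = 0.384 and 0.434). Without Dex, 0 of 89 members were called by edgeR between IL-23R KO and WT, where 0.684% of all genes were. DESeq2 called 0 as well (1.13% of all genes), 4 members had an unadjusted p under 0.05 (4.49%, beside 9.73% of all genes), and the median member was at -0.01. Atp5b, for example, was at 1011 to 1327 CPM in KO control and 1065 to 1249.7 in WT control, which overlap. Comparisons within and between the genotypes use the same 16 libraries and so share groups.

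Other mitochondrial genes were counted from lists of related pathways in the same fits, where Dex lowered 27.4% and raised 27.3% of all genes in KO cells and lowered 4.21% of them in WT cells. In IL-23R KO cells Dex lowered 12 of 13 mitochondrially encoded subunits (median -2.13), with mt-Nd1 at -3.10 (adjusted p = 1.30e-10), mt-Atp6 at -2.54 (adjusted p = 4.47e-09) and mt-Co2 at -1.94 (adjusted p = 3.96e-10), while mt-Co1 was at -0.16 (adjusted p = 0.132). Of 22 genes of the citric acid cycle and pyruvate dehydrogenase 19 fell and 2 rose. Idh2, the mitochondrial NADP-linked isocitrate dehydrogenase, was at -1.29 (adjusted p = 3.27e-07), citrate synthase (Cs) at -0.56 (adjusted p = 1.38e-06), and Pdk1, a kinase that inhibits pyruvate dehydrogenase, at 1.39 (adjusted p = 4.63e-08). Mitochondrial ribosomal proteins had 61 of 78 members lower and 5 higher. Of the 6 carriers of ADP, ATP and phosphate 5 fell and 1 rose, led by the adenine nucleotide carrier Slc25a5 (-1.71, adjusted p = 1.30e-11). Assembly and biogenesis factors outside the member set were mixed, with 12 of 40 lower and 8 higher: Atpif1, the inhibitor of ATP synthase, fell by 1.53 (adjusted p = 4.23e-10) and Higd1a, a small protein of the respiratory chain known from low oxygen, was 1.43 higher (adjusted p = 4.01e-10). Of 13 regulators of mitochondrial biogenesis 2 rose and 1 fell. On total counts without TMM scaling, where 12.6% of all genes were higher and 48.5% lower, the regulators had 1 higher and 5 lower. Their median changed from 0.15 to -0.31. Under the same scaling, the assembly list had 26 lower and 3 higher, and the other 4 lists kept their main direction. In WT cells Dex lowered 0 of 13 mitochondrially encoded subunits, 4 of 22 cycle genes, 7 of 78 ribosomal proteins, 1 of 6 carriers and 3 of 40 assembly factors, and raised none of them.

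The CHD1 groups allowed the CNS to be set against the dLN. Each tissue has its own count table, so tissue and table cannot be told apart. In CHD1 WT cells 7 of 89 members were higher in the CNS and 1 was lower, where 16.7% of all genes tested were called, 11.8% higher and 4.93% lower. The median member was at 0.15. In cells labelled CHD1 cKO 66 of 89 members were higher in the CNS and 2 were lower, where 47.3% of all genes were called, 24.6% higher and 22.7% lower, and the median member was at 0.59. Macrophage and microglia markers moved with tissue: their summed level was 4678 to 7129 CPM in WT CNS and 6051 to 12334 in cKO CNS, against 134 to 160 and 102 to 168 in the dLN, all 14 were called higher in both genotypes, and Tmem119 was at 0 in the dLN, as was Il17a among the 7 T cell markers. The 4 CD8 and NK cell markers summed to 88.8 to 557 CPM in cKO dLN and to 14.9 to 22.1 in WT dLN, and both of those tested, Cd8a (-6.55, edgeR adjusted p = 6.69e-07) and Cd8b1 (-3.596, adjusted p = 3.69e-06), were lower in the CNS in cKO. The 5 B cell markers summed to 36.3 to 64.4 CPM in WT CNS and 81.8 to 119 in cKO CNS, against 99.4 to 145 and 106 to 286 in the dLN, and 3 of the 5 were called lower in the CNS of each genotype. The 4 erythroid markers summed to 0.711 to 599 CPM in cKO CNS and to 0 to 3.13 in cKO dLN, with both of those tested called higher, while they were at 0 in WT CNS. Among 5 neural markers, Mobp, at 0 in WT dLN, was higher in the CNS of WT (7.27, edgeR adjusted p = 0.000774) and cKO (5.41, adjusted p = 0.00012). Mbp did not pass in either (0.05, adjusted p = 0.884, and 0.01, adjusted p = 0.977). Repeat features took 41.8% to 59.7% of counts in the dLN against 13.1% to 32.6% in the CNS, and they are part of the totals behind the marker sums. The part of all these in the members' values was not tested.

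CPM values below are scaled over the joined tables. Among the members higher in the WT CNS, Uqcrq, a small complex III subunit that binds ubiquinone, was at 297, 332 and 339 CPM in WT CNS and 205, 270.2 and 200.01 in WT dLN (log2 fold change 0.52 ± 0.14 SE, edgeR adjusted p = 0.0219). Ndufv3 was at 200.2, 197 and 174 CPM in WT CNS and 113, 119.9 and 142 in WT dLN (log2 fold change 0.61 ± 0.16 SE, edgeR adjusted p = 0.0158). Neither overlapped between the tissues. Atp5e, the epsilon subunit of ATP synthase (0.51, adjusted p = 0.0157), Ndufa1 (0.46, adjusted p = 0.0166), Ndufa7 (0.45, adjusted p = 0.0291) and Cox8a (0.41, adjusted p = 0.0394) made up the list with Cox6a2. That gene, the heart and muscle form of subunit VIa, was at 3.5, 6.14 and 8.02 CPM in WT CNS and at 0 in all 3 WT dLN libraries. Its mean over the WT CNS libraries (5.89 CPM) was 6.64 times the mean floor of 3 counts per WT dLN library (0.886 CPM). The WT count was 2 without CNS library 2, 2 without dLN library 1 and 5 without dLN library 3. The share of all genes called in these fits is not given here. Ndufv3 and Uqcrq each missed the threshold without any of 4 of the 6 libraries (adjusted p 0.0553 to 0.0761 and 0.0714 to 0.0969), Ndufa7 without any of 5 (0.0518 to 0.110), Ndufa1 without any of 3 (0.0548 to 0.0738) and Atp5e without any of 2 (0.0509 to 0.0725).

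In the cells labelled CHD1 cKO all 15 tested complex V members were higher in the CNS, with 12 of 15 in complex IV, 7 of 9 in complex III, 27 of 36 in complex I, 3 of 4 in complex II and 2 of 8 assembly factors. Cox5a was at 425, 316, 425 and 505 CPM in cKO CNS and 153, 138, 171 and 229 in cKO dLN (log2 fold change 1.27 ± 0.18 SE, edgeR adjusted p = 5.01e-05). Uqcrq was at 341, 379, 444 and 414 CPM and 167, 186, 199.8 and 211 (log2 fold change 1.05 ± 0.13 SE, edgeR adjusted p = 1.39e-05), and Cox7a2 at 386, 322, 395 and 451 and 202, 157, 182 and 247 (log2 fold change 0.98 ± 0.17 SE, edgeR adjusted p = 0.00029). No CNS library was as low as any dLN library for these 3 genes. The small complex I subunits Ndufc1 (0.95, adjusted p = 0.000946) and Ndufc2 (0.97, adjusted p = 0.000624) were also higher. Of complex II, Sdhb (0.72, adjusted p = 0.000826), Sdhd (0.65, adjusted p = 0.000996) and Sdhc (0.53, adjusted p = 0.0284, and 0.0682 and 0.0791 without dLN library 1 or CNS library 4) were higher, and Sdha was not (-0.03, adjusted p = 0.802). Atp5b was 0.52 higher (adjusted p = 0.00143), Atp5g1 0.52 (adjusted p = 0.00547), Atp5g3 0.73 (adjusted p = 0.00208) and Atp5g2 0.33 (adjusted p = 0.0158). Atp5a1 was 0.27 higher (adjusted p = 0.0428, and 0.0779 to 0.115 without any of 5 of the 8 libraries). Cycs overlapped between the tissues (0.16, adjusted p = 0.544).

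Ndufa4 stood apart, being lower in the CNS of both genotypes. It was at 201, 238 and 217 CPM in WT CNS and 339, 429.6 and 323 in WT dLN (log2 fold change -0.74 ± 0.13 SE, edgeR adjusted p = 0.00109), and at 307, 288, 254 and 291 in cKO CNS and 370.3, 337, 348 and 388 in cKO dLN (log2 fold change -0.34 ± 0.11 SE, edgeR adjusted p = 0.0199). The tissues did not overlap in either genotype. The cKO call was lost without CNS library 3 (adjusted p = 0.0553), and on total counts without TMM scaling the cKO value was 0.29 and the WT call was lost (adjusted p = 0.19). Cox7a2l, the other member called lower in cKO CNS (log2 fold change -0.48 ± 0.18 SE, edgeR adjusted p = 0.0421), overlapped between the tissues, lost its call without any of 6 of the 8 libraries (adjusted p 0.0591 to 0.0897) and was at 0.12 without TMM scaling. Under that scaling all genes had a median of 0.36 in the WT and 0.60 in the cKO comparison, and the members split 31 higher to 0 lower and 84 to 0. Of all genes 21.8% were then higher and 1.13% lower in WT, and 48.5% and 5.16% in cKO. The median member lay 0.61 above the median gene in cKO cells under both scalings, which a factor common to all genes of a library can hardly change. Leaving out the 2 cKO dLN libraries with most CD8 and NK marker counts (2 and 3) gave 46 called members beside 30.4% of all genes and ended the calls of Sdhc, Atp5a1, Atp5g1 and Atp5g2 (adjusted p = 0.0594, 0.223, 0.0723 and 0.0849) and of Uqcrc1, Cox7a1 and Cox7a2l (0.0798, 0.132 and 0.241). Leaving out 2 cKO CNS libraries picked for their erythroid counts (1 and 4), though every cKO CNS library held some, gave 53 beside 34.5% of all genes. It ended the calls of Sdhc, Cox7a1, Cox7a2l, Atp5a1 and Atp5g2 (adjusted p = 0.102, 0.0953, 0.138, 0.124 and 0.136). These libraries were chosen after the data were seen.

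**Figure D5:**
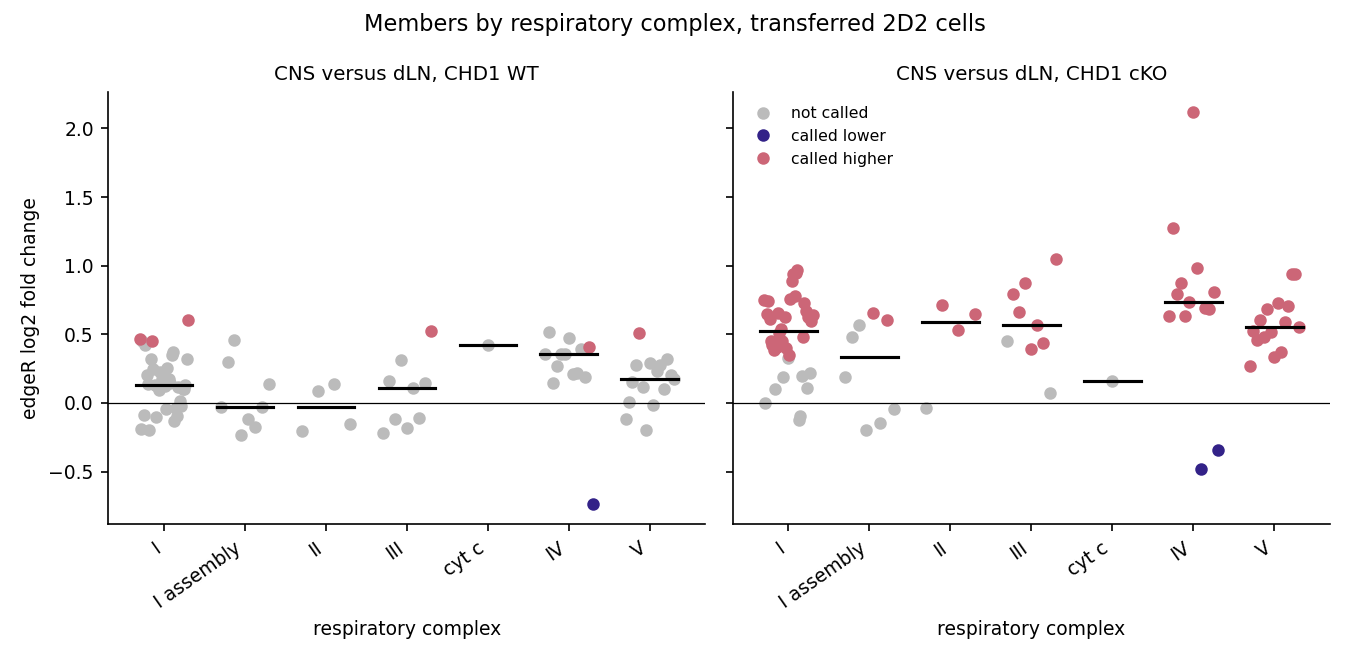
edgeR log2 fold changes (CNS versus dLN) of the tested members in CHD1 WT cells (left) and in cells labelled CHD1 cKO (right), one point per gene, by respiratory complex, with bars at the medians of the genes drawn and colours for called and uncalled genes. Atp5s is not drawn, nor are Cox6a2 and Cox6b2, which were at 0 in WT dLN libraries. The cKO medians lie between 0.33 and 0.74 outside cytochrome c, and Ndufa4 is blue in both panels.

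The difference in the tissue step between the genotypes was tested as well. In the interaction of CHD1 genotype and tissue, 0 of 89 members passed in edgeR, where 0.112% of all genes did, although 79 of 89 had a positive term, beside 47.1% of all genes, at a median of 0.38, and 37 had an unadjusted p under 0.05 (41.6%, beside 18.9% of all genes). The lowest adjusted p was that of Ndufa12, a complex I subunit named after its value was seen, which was at 124, 159.6, 161 and 174 CPM in cKO CNS, 97.3, 79, 99.9 and 93.3 in cKO dLN, 104, 118 and 102 in WT CNS and 116, 132 and 97.3 in WT dLN (log2 fold change 0.83 ± 0.20 SE, edgeR adjusted p = 0.0746). The tissues overlapped in WT and did not in cKO. DESeq2 called 25 members, all with positive terms, beside 5.06% of all genes, and edgeR called 19 without cKO dLN library 4, beside 5.62%. Without the 2 cKO dLN libraries with most CD8 and NK marker counts, edgeR called 0 and 23 members had an unadjusted p under 0.05 (25.8%, beside 12.2% of all genes).

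Within a tissue, no member was called between the CHD1 genotypes by edgeR. In the CNS 0 of 89 members were called in libraries labelled cKO against WT, where 0.00896% of all genes were called, and 14 had an unadjusted p under 0.05 (15.7%, beside 11.9% of all genes). The median member was at 0.20, with 77 of 89 positive beside 48.9% of all genes, and 15 members had all cKO libraries above all WT libraries, against 5.95% of all genes. In the dLN 0 of 86 were called, where 0.0714% of all genes were, and 28 had an unadjusted p under 0.05 (32.6%, beside 20.1% of all genes). The median was -0.20, with 71 of 86 negative, where 52.1% of all genes were positive. Wholly below WT lay 19 members, against 7.99% of all genes. Of the 86 members tested in both tissues, 64 were positive in the CNS and negative in the dLN. The share of all genes with this pattern is not given here.

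Markers of other cell types differed between the CHD1 genotypes beside these values. In the CNS all 14 macrophage and microglia markers were positive in cKO at a median of 0.60 with 0 called, and their sums, given above, overlapped. The B cell sums did not overlap, with cKO above WT and 0 of 4 markers tested called, and erythroid counts were found in cKO alone. Without the 2 cKO CNS libraries picked for their erythroid counts, the median member was at 0.16 and 4 of 89 had an unadjusted p under 0.05 (4.49%, beside 9.996% of all genes). In the dLN Cd8a was 6.17 higher and Cd8b1 3.84 higher in cKO (adjusted p = 0.0356 for both), the CD8 and NK sums did not overlap, and the B cell sums overlapped with 0 of 5 called. Without the 2 cKO dLN libraries with most CD8 and NK counts, the median member was at -0.15 and 4 of 87 had an unadjusted p under 0.05 (4.60%, beside 8.98% of all genes). Both of these fits have fewer libraries, left out after the data were seen, and the share of all genes fell in them too. The part of these markers in the members' values was not tested.

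Single members show the overlap of the groups. Atp5b was at 734, 772, 757 and 819 CPM in cKO CNS and 653, 775 and 694 in WT CNS (log2 fold change 0.12 ± 0.12 SE, edgeR adjusted p = 0.714), which overlap. In the dLN it was at 348, 361, 368 and 410.2 in cKO and 446, 598 and 435 in WT (log2 fold change -0.41 ± 0.13 SE, edgeR adjusted p = 0.144), where the cKO libraries lay below. The lowest adjusted p in the CNS was that of Cox6a2, at 1.73, 1.95, 2.24 and 2.18 CPM in cKO and 4.2, 7.37 and 9.65 in WT (log2 fold change -1.78 ± 0.34 SE, edgeR adjusted p = 0.171). The cKO libraries were all lower. In the dLN it was that of Ndufb8, a complex I subunit picked after its value was seen, at 91.4, 91, 108 and 94.5 and 135, 149 and 132 (log2 fold change -0.53 ± 0.11 SE, edgeR adjusted p = 0.0729), also without overlap. DESeq2 called 3 members in the CNS (1.60% of all genes) and 2 in the dLN (3.93%), and edgeR called 12 in the dLN without cKO dLN library 4 (10.2%).

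No member was called between GR cKO and GR WT. In GR cKO against GR WT cells of the CNS, 0 of 89 members were called by edgeR, where 0% of all genes were called, 3 members had an unadjusted p under 0.05 (3.37%, beside 10.99% of all genes) and DESeq2 called 1 (1.09% of all genes). The median member was at 0.02. Atp5b was at 563, 639, 434 and 579.6 CPM in GR cKO and 503, 465, 497 and 667 in GR WT (log2 fold change 0.06 ± 0.15 SE, edgeR adjusted p = 0.921), and Cox5a at 314, 382, 256 and 337 and 365, 335, 300.1 and 381 (log2 fold change -0.10 ± 0.13 SE, edgeR adjusted p = 0.826). Both overlapped. Cox6a2 differed most, at 18.5, 7.38, 5.25 and 7.16 CPM in GR cKO and 1.98, 1.07, 4.44 and 2.28 in GR WT (log2 fold change 2.00 ± 0.49 SE, edgeR adjusted p = 0.233), with every GR cKO library above GR WT and no call. Macrophage and microglia markers ranged from 3805 to 17247 CPM in GR WT and from 7054 to 14374 in GR cKO, which also overlap. The B cell sums were 56.0 to 98.9 CPM in GR WT and 76.3 to 487 in GR cKO, and the T cell sums, 1671 to 2406 in GR WT and 1150 to 1588 in GR cKO, did not overlap, with 0 markers of either list called. Their part in the members' values was not tested.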

How the data were processed

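The deposited tables give expected counts per gene as whole numbers. Per the submitters' processing notes, the authors' tool was RSEM 1.3.3 and the build mm10. The aligner, the annotation, the rounding and the treatment of reads shared between gene copies are not given in the sources used here. Each table was fitted with edgeR 4.0.16 (R 4.3.3): filterByExpr (minimum count 10, minimum total 15), TMM scaling and the quasi-likelihood F test, with Benjamini-Hochberg adjustment over all genes tested (9803 to 11589) and calls at an adjusted p under 0.05. The 4 culture groups shared one fit, and the 2 CHD1 tables were joined for the tissue comparisons. Levels per kilobase and gene positions use GENCODE M21 (GRCm38), in which 94 of 95 members and 98.1% of the 31053 symbols were found. Promoter windows come from RefSeq (GRCm38.p6). DESeq2 1.42.0, limma 3.58.1, other scalings and filters, a replicate block and leaving out each library were tried.

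The members and lists were chosen with earlier results of these data known. Genes named are up to 5 called members per direction and comparison with the largest change, no overlap and at least 10 CPM in the higher group, a set of 26 members, the lowest and highest of a complex, members against the main direction and those not detected; Ndufa12 and Ndufb8 lie outside this rule. On simulated data with 100 genes changed 2-fold, 78% were called in the WT Dex design, 69% in the KO Dex design, 43% and 58% in the CHD1 designs (CNS and dLN), and 66% in the GR design. With 100 genes changed 1.5-fold these shares were 38%, 27%, 11%, 12% and 10%. In the tissue designs (CHD1 WT and cKO) they were 35% and 54% at 2-fold and 4% and 19% at 1.5-fold. Changes of 1.5-fold were thus mostly missed in these simulations, in which few genes changed. The shares do not carry over to fits in which many genes were called. With Dex in KO cells 54.7% of all genes were called, and members with steps under 1.5-fold were among them. No per-sample column was left unused. Same-numbered libraries were checked for pairing by the correlation of their deviations, which ran from -0.0865 to 0.125, so the numbers were not taken to pair them.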

Additional observations from a re-analysis of the deposited data

Results flagged for a closer look

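Of 120 groups of 4 libraries checked, 7 held 1 library far from the other 3, and chance alone flags about 1 in 20 groups. The mitochondrially encoded subunits took 2.00% of the counts outside repeat features in CHD1 cKO dLN library 3, against 2.99% to 3.17% in the other 3, and 3.01% in GR WT library 4, against 2.74% to 2.78%. Atp5g1 was at 267 CPM in WT control library 2, against 256 to 257, and Ndufab1 was at 460.3 in the same library, against 387 to 389.5. Cox7c was at 546 CPM in WT control library 3, against 590.4 to 599. Ndufa4 was at 432 CPM in WT Dex library 2, against 330.5 to 343, and Cox4i2 was at 11.6 in IL-23R KO Dex library 6, against 9.59 to 9.88.

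The response to Dex differed between IL-23R KO and WT cells, by the interaction term of the edgeR fit, for 43 of 89 members, beside 32.2% of all genes. The term was positive for 8 (15% of all genes) and negative for 35 (17.2%). Among called members of at least 10 CPM in the higher group, the largest 5 positive terms were those of Cox7a1 (2.39 on the log2 scale), Cox4i2 (2.07), Ndufv3 (1.14), Ndufa6 (0.57) and Cox7c (0.47), and the largest 5 negative ones were those of Ndufaf5 (-1.04), Cox5b (-0.97), Sdhb (-0.96), Ndufa10 (-0.96) and Atp5g3 (-0.95). Ndufaf4, a complex I assembly factor of lower level, was at -1.20 (adjusted p = 0.0326).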

How the results depend on the processing

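Of 109 results of single members, 82 kept their call and direction in every setting tried, and 3 changed sign, all on total counts without TMM scaling: Cox7a2l with Dex in KO cells (-0.17), and Ndufa4 (0.29) and Cox7a2l (0.12) between CNS and dLN in cells labelled CHD1 cKO. On total counts the median member was at 0.36 and 0.64 for the CHD1 genotype in the CNS and its interaction with tissue, at 0.51 (31 called) and 1.21 for tissue in CHD1 WT and cKO cells, at -0.30 (32 called) and -0.92 for Dex in WT and KO cells, at -0.61 (67 called) for their interaction, and at 0.033 and -0.56 for IL-23R genotype without and with Dex. In the interaction of IL-23R genotype and Dex on total counts, 7.09% of all genes were called upward and 31.9% downward. DESeq2 called 3, 2 and 1 members between the CHD1 genotypes in CNS and dLN and between the GR genotypes, and 25 in the tissue interaction. Without a filter on low counts 1 member was called between the CHD1 genotypes in each tissue and 11 with Dex in WT cells, and the medians of IL-23R genotype under Dex and of the interaction were -0.30 and -0.30. Over members of at least 10 CPM the medians were -0.38 for Dex in KO cells, -0.18 for genotype under Dex, -0.20 for the interaction and 0.46 for tissue in cKO cells. The cause of these differences was not tested.

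Leaving out 1 library at a time gave 0 to 12 called members between the CHD1 genotypes in the dLN, 9 to 19 with Dex in WT cells, 2 to 6 between tissues in CHD1 WT cells and 0 to 19 in the tissue interaction, and a median of -0.47 to -0.40 for Dex in KO cells. Except where stated above, the share of all genes called in these fits is not given here.

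A replicate block gave 1 called member between the CHD1 genotypes in the dLN, ended the call of Cycs with Dex in WT cells (adjusted p = 0.0839) and left the other counts within 1.5 times. The libraries share only a number: each correlated best with its own number in 2 of 4 (CHD1 cKO tissues), 2 of 3 (CHD1 WT tissues), 2 of 3 and 0 of 3 (CHD1 genotypes in CNS and dLN), 3 of 4 (WT Dex) and 1 of 4 (KO Dex). For the comparisons of GR and of IL-23R genotypes no paired analysis was possible, because the GR groups share no numbers and the IL-23R genotypes are numbered apart. Depth limits what can be said of members with few counts, such as Cox4i2 in transferred cells.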

Other observations

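Other mitochondrial gene lists were counted between CNS and dLN in cells labelled CHD1 cKO, where 24.6% of all genes were higher and 22.7% lower. Of 78 mitochondrial ribosomal proteins, 34 were higher and 1 lower in the cKO CNS, and 5 of 6 carriers of ADP, ATP and phosphate were higher. The carrier Slc25a5 was at 0.56 (edgeR adjusted p = 0.00132). Of 22 genes of the citric acid cycle and pyruvate dehydrogenase, 8 were higher and 4 lower. Of 13 mitochondrially encoded subunits, 0 were higher and 6 lower at a median of -0.48. On total counts without TMM scaling 2 were higher and 0 lower at a median of 0.13, beside 48.5% of all genes higher and 5.16% lower. In CHD1 WT cells, where 11.8% of all genes were higher and 4.93% lower, 1 of these 13 was lower, mt-Nd1 at -0.83 (adjusted p = 0.00782), and 1 ribosomal protein was higher and 2 were lower.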
